A study of Drosophila melanogaster with 3 samples.

Results

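Antimicrobial peptide genes encode small secreted peptides that kill bacteria and fungi. The group considered here was 10 genes of *Drosophila melanogaster*, namely *DptA*, *DptB*, *Drs*, *Listericin*, *AttA*, *AttD*, *CecA1*, *Mtk*, *Def* and *Dro*. Members were counted as measured where the annotation of the array paired a probe with that gene and no other. By this rule 4 of the 10 genes were measured, *DptB*, *Drs*, *Listericin* and *Mtk*, each by 1 probe, of 8247 genes on the array with such a probe. *DptA*, *AttA*, *AttD*, *CecA1*, *Def* and *Dro* had no probe of their own by this rule; a spot paired with *Def* was paired with another gene as well and was not used.

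The RNA came from wild-type embryos injured with a laser and from uninjured embryos. It was hybridised to 3 arrays with 2 colours, A, B and C, with the uninjured sample in Cy3 and the wounded sample in Cy5 on each. The labels give no age of the embryos, time after the injury or number of embryos. Nor do they tie an array to its own collection of embryos, so p-values describe how far these 3 arrays vary, which may be technical. The dyes ran the same way throughout, and a probe's preference for a dye and the effect of wounding cannot be told apart.

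Values below are log2 ratios of the colours. A positive value, called a high ratio, likely means more transcript in wounded embryos. This reading rests on 2 points: the title of the series puts the wounded sample ahead of the other, and Cy5 is the usual numerator. The titles of the samples name the embryos in the reverse order and the direction is not stated, so if it runs the other way each high and low exchanges. An array of whole embryos cannot tell fewer cells of a type from less RNA per cell.

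In flies, antimicrobial peptides are made mainly by the fat body and by barrier epithelia, and blood cells contribute. Microbial cell wall fragments sensed by peptidoglycan recognition proteins start the Imd cascade, which ends in the NF-kappaB factor Relish. The Toll cascade, started by cleavage of the ligand Spätzle, ends in the factors Dif and Dorsal. Both also act without infection in some settings, and Toll and Dorsal pattern the early embryo.

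All 4 measured peptide genes had a high ratio on each of the 3 arrays, and 1 of them, *Listericin*, passed the test over all probes. *Listericin* stood highest at 0.44 ± 0.08 (SD, n = 3), a ratio of 1.36. *DptB* followed at 0.33 ± 0.09 and *Drs* at 0.31 ± 0.06, and *Mtk* was lowest at 0.13 ± 0.10 (SD, n = 3 each). The median of the 4 gene means was 0.32, against 0.00 (−0.0002) over all 8247 gene means. By way of background, 22.0% of the 11887 tested probes were positive on all 3 arrays, 0.513% passed the test with a high ratio and 1.03% with a low ratio.

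*Listericin* (CG9080) encodes an antibacterial peptide whose induction in fly cells is known to need the receptor PGRP-LE and the JAK-STAT pathway. Its probe, clone RH62530, gave log2 ratios of 0.54, 0.42 and 0.37, in the order A, B, C. Each array was well above 0, and array A was the highest. As linear ratios these were 1.45, 1.34 and 1.29. The mean had a 95% interval of 0.29 to 0.60 and passed the threshold by a small margin (limma adjusted p = 0.0466 over all probes). It ranked at place 136 of all probes by p, and 1.26% of tested probes had a higher mean. As a gene mean, adjusted over all genes, it also passed (limma adjusted p = 0.0389), where 0.497% of genes did so with a high ratio. The call over all probes was lost when any array was left out (limma adjusted p = 0.254 without array A, 0.0786 without array B and 0.0846 without array C), while the mean lay between 0.40 and 0.48. It was also lost with control spots kept in the fit (limma adjusted p = 0.0517), with only probes of 1 symbol (0.0501) and on the linear ratio (0.0619).

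*DptB* (CG10794) encodes a diptericin, a glycine-rich peptide active against Gram-negative bacteria and a standard readout of the Imd pathway. Its probe RH09231 gave 0.27, 0.44 and 0.29 (A, B, C). Here array B was the highest, while A and C were close together. The 95% interval of the mean was 0.17 to 0.49, and the probe did not pass over all probes (limma adjusted p = 0.0722, unadjusted p = 0.00248). Of all tested probes, 3.04% had a higher mean. *DptA*, the neighbouring gene in the RefSeq order and a paralogue, was not measured.

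*Drs* (CG10810) encodes drosomycin, an antifungal peptide and a standard readout of the Toll pathway. Its probe LP03851 gave 0.30, 0.26 and 0.38 (A, B, C), with array C the highest. These arrays differed little, and 23.1% of tested probes had a smaller SD. The 95% interval was 0.17 to 0.45, and the probe did not pass over all probes (limma adjusted p = 0.0710, unadjusted p = 0.0023). It was among the upper end of the array, with 3.58% of probes higher.

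*Mtk* (CG8175) encodes metchnikowin, a proline-rich peptide with antibacterial and antifungal activity. Its probe RH07954 gave 0.18, 0.20 and 0.02 (A, B, C). Arrays A and B were alike, and array C was close to 0. The 95% interval of −0.03 to 0.29 included 0, and the probe did not pass (limma adjusted p = 0.347). An exact two-sided sign-flip test over 3 arrays cannot give a p below 0.25, and each of the 4 probes gave 0.25.

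**Figure D1:**
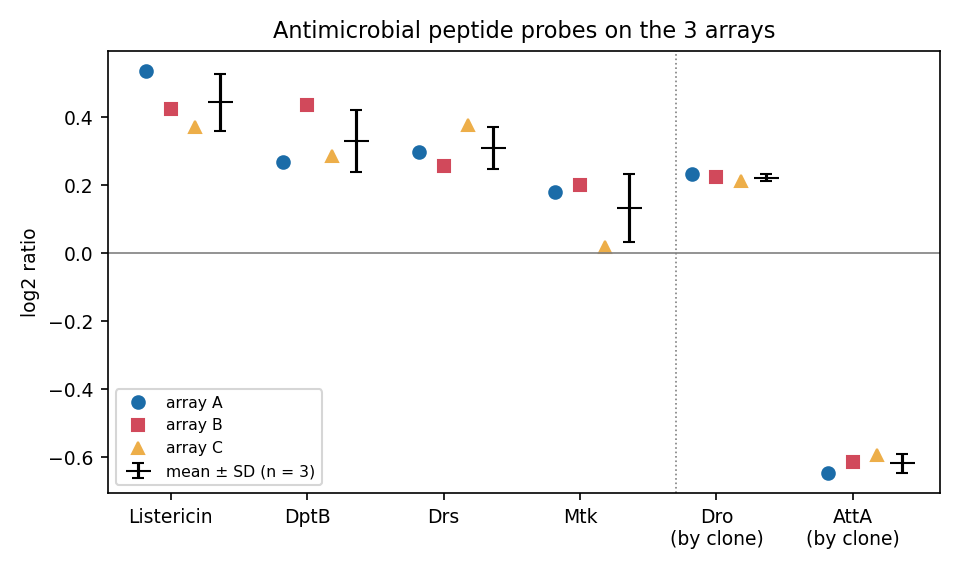
Log2 ratio (y axis) of each antimicrobial peptide probe on arrays A, B and C, with the mean and SD of the 3 arrays as a bar beside the points. The 4 genes left of the dotted line are named by the annotation of the array and lie above 0 on every array, from 0.02 for *Mtk* on array C to 0.54 for *Listericin* on array A. *Dro* and *AttA*, right of the line, are named by clone and lie at 0.22 and −0.62.

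Differences among the 4 genes were small beside their spread, except at the ends of the order. On the same array, *Listericin* exceeded *Mtk* by 0.36, 0.22 and 0.35 on arrays A, B and C. *DptB* exceeded *Mtk* by 0.09, 0.23 and 0.27. *Drs* exceeded *Mtk* by 0.12, 0.05 and 0.36. Neighbours higher in the order did not separate. *DptB* lay above *Drs* on 1 array of 3 (difference 0.02 ± 0.14, SD), and *Listericin* lay above *DptB* on arrays A and C (DptB minus Listericin, −0.11 ± 0.14, SD). The array with the highest value also differed, being A for *Listericin*, B for *DptB* and *Mtk*, and C for *Drs*. The medians of the 4 probes were 0.28, 0.34 and 0.33 on arrays A, B and C, so no array carried the group. These differences are descriptions with no test.

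A pair of the members not measured by the rule could be tied to a spot in another way. RefSeq's gene table lists cDNA clone names among the synonyms of some genes, and 2 clones on the array that the array's annotation leaves unnamed carry the names of *AttA* (LP05763) and *Dro* (RH31634). Where both sources named a probe, they gave the same gene for 1178 of 1234 probes (95.5%). This link was made after the values were known, so both spots are given apart from the 4 genes above.

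The *AttA* clone had a low ratio. *AttA* (CG10146) encodes an attacin, a glycine-rich peptide active against Gram-negative bacteria. The spot gave −0.65, −0.61 and −0.59 (A, B, C), a mean of −0.62 ± 0.03 (SD, n = 3) and a ratio of 0.652. All arrays were far below 0 and close to each other, and 4.96% of tested probes had a smaller SD. The 95% interval was −0.75 to −0.48, and the spot passed over all probes (limma adjusted p = 0.0441), at place 6 by p, with 0.572% of probes lower. *AttB*, a near-identical neighbour, had no probe of its own, and a cDNA spot may not separate them. Left out in turn, arrays A, B and C gave limma adjusted p of 0.235, 0.0725 and 0.0645, with means from −0.63 to −0.60.

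The *Dro* clone had a high ratio. *Dro* (CG10816) encodes drosocin, a proline-rich peptide active against Gram-negative bacteria. The spot gave 0.23, 0.22 and 0.21 (A, B, C), a mean of 0.22 ± 0.01 (SD, n = 3), and did not pass (limma adjusted p = 0.111). *Dro*, *AttA* and *AttB* follow each other in the RefSeq order of protein-coding genes. Although neighbours, the clones of *AttA* and *Dro* lay apart by 0.88, 0.84 and 0.80 on arrays A, B and C. With these clones counted, 5 of 6 spots had a high ratio on every array and 1 had a low ratio on every array. Of all tested probes, 22.0% had a high ratio on every array. Neither source named a spot for *DptA*, *AttD*, *CecA1* or *Def* alone.

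**Figure D2:**
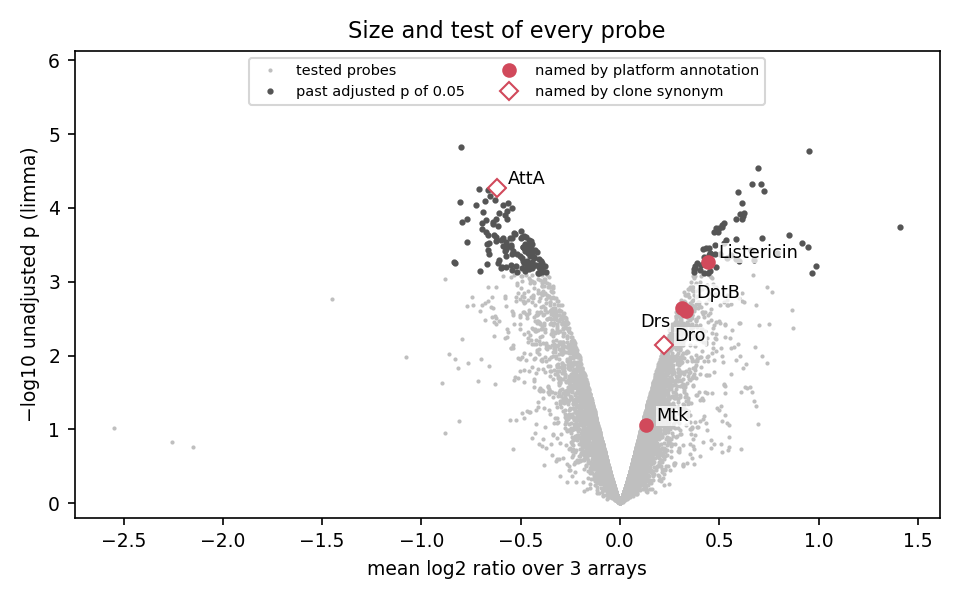
Mean log2 ratio over 3 arrays (x axis) against −log10 of the unadjusted limma p (y axis) for the 11887 tested probes, with the 184 past an adjusted p of 0.05 in dark grey. Of the antimicrobial peptide probes, *Listericin* (0.44) lies just inside the high calls and *DptB* and *Drs* just below them. The *AttA* clone (−0.62, open diamond) lies among the low calls with the smallest p.

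The cDNA collections that the clones came from differed in their ratios. *DptB*, *Listericin* and *Mtk* are RH clones, as is the *Dro* clone, and *Drs* and the *AttA* clone are LP clones. The 1064 tested RH clones had a median of 0.08, and 37.9% of them were positive on all arrays. The 558 LP clones had a median of 0.02, with 22.9% positive on all arrays. RH clones also held 22 of the 61 high calls. Within its own collection *Listericin* had 5.64% of RH clones above it and *DptB* 12.6%. For the *Dro* clone and *Mtk* those shares were 24.4% and 38.2%, and 4.48% of LP clones lay above *Drs*. With every collection centred on each array, *Listericin* had 0.37 (limma adjusted p = 0.0653), *DptB* 0.26 (limma adjusted p = 0.133) and *Mtk* 0.06 (limma adjusted p = 0.644). *Drs* had 0.29 (limma adjusted p = 0.0894) and the *AttA* clone −0.63 (limma adjusted p = 0.0586). The *Dro* clone went from 0.22 to 0.15 (limma adjusted p = 0.226). Centring thus moved the RH clones by more than the LP clones. The part of the collection in the peptide ratios was not tested further.

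**Figure D3:**
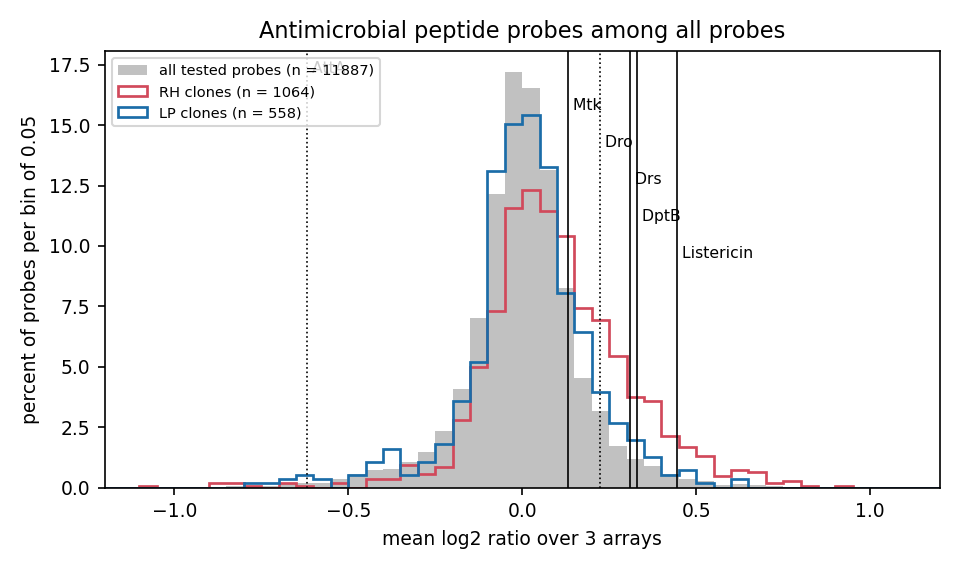
Percent of probes (y axis) in bins of 0.05 of the mean log2 ratio (x axis), for all tested probes, RH clones and LP clones; 5 probes beyond 1.2 in size lie off the axis. Solid lines mark the 4 antimicrobial peptide genes and dotted lines the *Dro* and *AttA* clones. RH clones are shifted to the right (median 0.08), and 5.64% of them lie above *Listericin*.

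Spots named for plant genes, which have no fly target, had a median of −0.23 over 119 spots. A mean at or above that of *DptB* was found for 2 of them and at or above that of *Listericin* for 1, while 20 lay at or below the *AttA* clone. The signal of the peptide spots over background is not known from these values, and its part in the ratios was not tested.

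Other antimicrobial and Toll-induced peptides were considered next. In the list of other antimicrobial peptide genes, 1 of 13 was measured. This was *Drsl5*, a relative of *Drs*, with −0.09, 0.55 and −0.21 (A, B, C), and a mean of 0.09 ± 0.41 (SD, n = 3; limma adjusted p = 0.803). The arrays disagreed in sign. By clone name, *CecC*, a cecropin gene, lay at −0.03 (limma adjusted p = 0.866 over all probes, where that of *Drsl5* is over all genes).

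Bomanins are short peptides made downstream of Toll and needed for resistance to fungi and some bacteria. The list held 18 genes, Bomanins and other Toll-induced peptide genes. Of these 5 were measured, all Bomanins, and 0 passed over all genes (3 had an unadjusted limma p under 0.05, as did 18.4% of all gene means). All 5 gene means were positive and 4 were positive on every array, with a median of 0.24. By single probe rather than gene mean, 22.0% of all tested probes and 37.9% of RH clones were positive on every array. *BomBc2* was among the 4 only as a mean of 2 probes that differed. These had 0.11, −0.05 and −0.03 for one and 0.02, 0.55 and 0.24 for the other (A, B, C). *BomS2* had 0.33, 0.10 and 0.66 in the same order (mean 0.36, limma adjusted p = 0.166). *BomT3* had 0.56, 0.13 and 0.16 (mean 0.28, limma adjusted p = 0.214), and *BomBc3* had 0.12, 0.30 and 0.29 (mean 0.24, limma adjusted p = 0.131). The SD over arrays was 0.28 for *BomS2*, 0.24 for *BomT3* and 0.10 for *BomBc3*, so *BomBc3* varied the least of these. *BomS4*, the measured gene that was not positive on every array, had −0.09, −0.02 and 0.41 (A, B, C), with a mean of 0.10 and an SD of 0.27. A further 3 genes of the list were named by clone, and their adjusted p are over all probes rather than over all genes. Of these *BomBc1* had 0.32, 0.38 and 0.40 (A, B, C; mean 0.37 ± 0.04, SD, n = 3; limma adjusted p = 0.0508). The other 2 were *BomS1* at 0.32 and *Dso1*, not a Bomanin, at 0.13, with limma adjusted p of 0.196 and 0.425. Of the 6 probes that the annotation gave to Bomanins, 5 were RH clones, and all 3 named by clone were.

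As gene means, the sensors and regulators of the Imd pathway lay close to 0. Of 11 genes 5 were measured and 0 passed (0 at an unadjusted limma p under 0.05), with a median of 0.04. *PGRP-LE*, the intracellular peptidoglycan receptor, was at 0.04, 0.01 and 0.08 (A, B, C). The receptor-family gene *PGRP-LA* had a mean of 0.08 ± 0.23, and *PGRP-LF*, which encodes an inhibitory member, had −0.03 ± 0.07 (SD, n = 3). Their limma adjusted p ran from 0.697 to 0.826. *PGRP-LB* was near 0 (0.05) only as a mean of 2 probes that differed in sign. These had −0.08, −0.40 and −0.02 for one (mean −0.16) and 0.68, 0.17 and −0.08 for the other (mean 0.255), in the order A, B, C.

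Among the intracellular components of the Imd pathway 9 of 11 were measured and 0 passed (2 at an unadjusted limma p under 0.05). Their median was 0.00 (0.0016). *Tab2*, the partner of the kinase Tak1, had the highest value of the pathway lists, at 0.93, 0.31 and 0.56 (A, B, C). Its mean was 0.60 ± 0.31 (SD, n = 3; limma adjusted p = 0.0723). All arrays were high, array A the most and array B the least. *key*, the regulatory subunit of the IKK complex, had −0.17, −0.44 and −0.08 (mean −0.23, limma adjusted p = 0.233), and *Diap2*, a ubiquitin ligase of the pathway, had 0.11 (limma adjusted p = 0.406). *Rel*, the gene of Relish itself, was at −0.02 ± 0.01 (SD, n = 3) and was chosen after its values were seen.

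In the Toll pathway the genes of recognition and proteolysis gave 7 measured of 11 and 0 past the test (0 at an unadjusted limma p under 0.05), with a median of −0.01. *GNBP2*, of the glucan-binding family, had −0.17 ± 0.14, *psh*, a protease that senses microbial proteases, had 0.12 ± 0.08, and the protease gene *spirit* had −0.06 ± 0.04 (SD, n = 3 each). The receptor and intracellular components gave 9 measured of 10 and 0 past the test (1 at an unadjusted limma p under 0.05), with a median of 0.03. *dl*, which encodes Dorsal, was at 0.19, 0.25 and 0.12 (A, B, C; mean 0.18, limma adjusted p = 0.172). *Dif* had 0.30, −0.15 and 0.36, with array B opposite in sign, and the adaptor gene *Myd88* had a mean of 0.07. The pathway genes thus centred near 0, where the 4 peptide genes had a median of 0.32; the difference between these lists was not tested. The clones differ in origin too, with 3 of the 34 pathway probes from the RH collection and 13 from GH, whose clones had a median of −0.03, against 3 of the 4 peptide probes from RH.

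**Figure D4:**
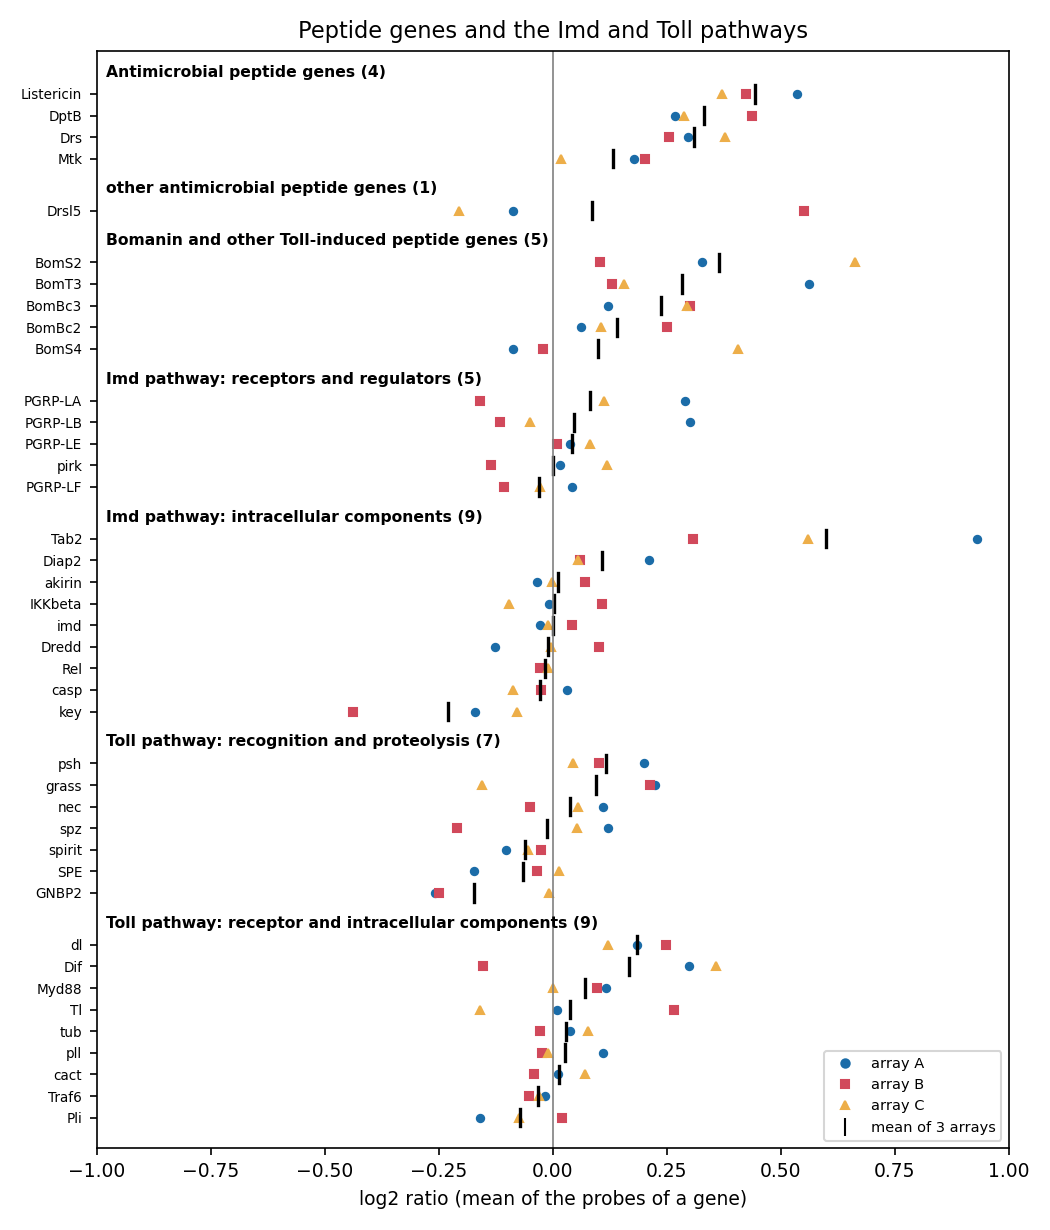
Log2 ratio on each array (points) and mean of the 3 arrays (black bars) for the measured genes of the antimicrobial peptide group, the other peptide lists and the Imd and Toll pathways, with the number measured in brackets. The 4 antimicrobial peptide genes and, as means of a gene's probes, 4 of 5 Bomanins lie above 0 on all arrays. Most pathway genes scatter around 0 and *Tab2* stands out at 0.60.

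Genes listed as markers of tissues that make the peptides were read from the same fit. The age of the embryos is not given, and whether each gene marks its tissue at that age was not tested. In the fat body list 5 of 9 genes were measured, with a median of 0.10. In it *Fbp2*, a fat body protein gene, passed with a low ratio (−0.48 ± 0.08, SD, n = 3; limma adjusted p = 0.0359), and 0 passed with a high ratio. An unadjusted limma p under 0.05 was found for 3 of the 5, *Fbp2* and *FASN1* low and *Lsp2* high, and for 18.4% of all gene means. The members other than *Fbp2* lay on both sides of 0, with *Lsp2*, a storage protein gene, at 0.25 and positive on every array (limma adjusted p = 0.135), *Fbp1* at 0.12, *apolpp* at 0.10 and *FASN1* at −0.14. On arrays A, B and C, *Fbp1* had 0.25, 0.22 and −0.12 and *apolpp* had −0.08, 0.12 and 0.25. The *apolpp* value averages 3 spots with means of 0.002, 0.27 and 0.02, the last pair from the same clone, LP11945. The haemocyte list gave 5 of 7 (median 0.04), with *eater* at 0.20, *NimC1* at 0.11, *crq* at 0.04, *Hml* at 0.00 (0.0004) and *Pxn* at −0.03. The 3 spots averaged for *NimC1* carry the name of the same clone, LP05465, yet disagreed in sign, with means of 0.12, −0.19 and 0.39. Each of the 4 peptide genes had 1 spot, so agreement between spots could not be read for them. The epidermis list gave 5 of 6 (median 0.06), with *Ddc* at −0.24, *kkv* at 0.12 and *ple* at 0.20. In these last lists 0 passed the test (0 and 1 at an unadjusted limma p under 0.05). These are ratios and give no level of any tissue, and the part of tissue make-up in the peptide ratios was not tested.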

How the data were processed

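The deposited table gave 1 value per probe and array. This deposited score was taken to be a linear ratio of both colours with a minus sign, because each value is negative, most lie around −1 and the highest is −0.01. For the scanner, the background correction, the authors' normalization and the direction, the method is not given in the sources read. The log2 of the ratio was used. Of 12144 rows, 160 control spots and 97 probes with a missing value were left out, which left 11887. Genes came from the platform annotation, updated by Entrez identifier through RefSeq's Release 6 table. No coordinates are printed, since no source names the build behind the array, and no sequences were used.

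An intercept was fitted to each probe, and to 8247 means of a gene's probes, with limma 3.58.1 in R 4.3.3 (moderated variances, Benjamini-Hochberg adjustment over all features, threshold 0.05), and the fit was tested on simulated data. Errors are the SD of 3 arrays, whose small number sets the precision. Intervals are limma's 95% intervals, unadjusted. The members and gene lists were chosen with earlier results of these data known. In each list the text names genes with a probe past the threshold, or otherwise the 3 of smallest p. Other genes of the fat body and haemocyte lists, *BomBc2*, *BomS4*, *PGRP-LB*, *Rel* and those named by clone were added after seeing values. Alternatives covered scaling, missing values, moderation, array weights, probe sets, clone collections, scale and leaving out each array.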

Additional observations from a re-analysis of the deposited data

How the results depend on the processing

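All 4 peptide genes and the *Dro* clone kept a positive mean, and the *AttA* clone a negative one, under every alternative run; since each had 1 sign on all arrays, leaving an array out could not turn it. The number of the 4 peptide probes past the threshold, 1 in the reported fit, was 2 with array weights (*Listericin* and *Drs*) and 3 at an adjusted p of 0.10. With the clones named by synonym counted as well, 2 spots passed, *Listericin* with a high ratio and the *AttA* clone with a low ratio. This choice was made after seeing the data. Of the 4, 0 passed with only probes of 1 symbol, control spots kept, clone libraries centred or the linear ratio. Leaving out any 1 array also gave 0 (0 to 0). *Listericin* passed in 8 of 15 alternatives (limma adjusted p from 0.0302 to 0.254), *Drs* in 2 and *DptB* in 1 of 15, *Mtk* in 0 of 15 (0.275 to 0.760), and the *AttA* clone in 9 of 14 (0.0300 to 0.235). These counts include the threshold of 0.10, which leaves the p-values of the reported fit as they are. It gave the only pass of *DptB* and 1 of the 2 of *Drs*, the other being with array weights. As gene means, 1 peptide gene passed, 3 with array weights, and 0 with clone libraries centred, the linear ratio or any array left out (0 to 0). Over all probes the 184 calls became 441 with array weights, 91 with probes of 1 symbol, 683 at 0.10, and 0 with clone libraries centred (smallest limma adjusted p 0.0586, 2203 probes at an unadjusted p under 0.05), with the linear ratio (0.0619, 2168) or without any array (0 to 0; 0.0514 to 0.235, 1307 to 2365). Over all gene means 162 calls became 395 with array weights and 0 with clone libraries centred (0.0519), the linear ratio (0.0529) or any array left out (0 to 0; 0.0582 to 0.168). The cause of these changes was not tested. Control spots carry no gene, so that alternative was not run on gene means. There is 1 group of arrays, so no paired fit applies.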
